A study of Homo sapiens with 2 samples.

Results

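The genes described here are 9 genes of the heterochromatin system built on methylated lysine 9 of histone H3 (H3K9). They are the methyltransferase genes SUV39H1, SUV39H2, EHMT1, EHMT2, SETDB1 and SETDB2 and the heterochromatin protein 1 (HP1) genes CBX1, CBX3 and CBX5. They were taken by symbol from 58884 gene IDs listed in both count tables, and all 9 were found. The set was chosen with earlier results of these libraries known, and was selected on the THZ1 over DMSO ratios of these genes, that of SUV39H1 above all, so the values below are a description and no test is attached to them. The cells were T24/R, a human bladder line labelled epithelial and adherent; the series concerns urothelial carcinoma with and without chemoresistance, and the labels do not say which T24/R stands for. One group received the solvent DMSO for 6 h and the other 1600 nM THZ1 for 6 h. THZ1 is a covalent inhibitor of the transcriptional kinase CDK7 that also acts on CDK12 and CDK13. Each group had 1 library from 1 cell line, so the differences below come without replication and without p-values.

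Methylated H3K9 is a mark of silent chromatin. SUV39H1 and SUV39H2 trimethylate it at pericentromeric repeats, EHMT1 (GLP) and EHMT2 (G9a) work as a heterodimer that adds the lower methylation states across silent euchromatin, and SETDB1 trimethylates it at retroelements together with its partner ATF7IP and the corepressor TRIM28. SETDB2 is the less studied relative of SETDB1. The HP1 proteins CBX5 (HP1 alpha), CBX1 (HP1 beta) and CBX3 (HP1 gamma) bind the mark through a chromodomain and dimerise and recruit other proteins through a chromoshadow domain.

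After 6 h of THZ1 the 9 genes did not move as one. SUV39H1 was 26.4-fold lower (13.5 to 70.9), with 265 counts in DMSO and 7 in THZ1, whereas its paralogue SUV39H2 was 1.71-fold lower (1.57 to 1.87), with 1683 and 735 counts. SETDB1 was 2.35-fold lower and EHMT1 1.97-fold lower, while EHMT2 differed by 1.15-fold in the other direction. Of the HP1 genes, CBX1 and CBX3 had higher values in THZ1, by 1.64-fold and 1.47-fold, and CBX5 a lower one, by 1.37-fold. Ranges in brackets are 95% intervals that cover counting error only. Folds and log2 ratios are THZ1 over DMSO after TMM scaling, with 0.5 added to each count.

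Genes that reached 30 counts in either library were tested. A call of lower or higher needed a 2-fold ratio and an interval that did not include 1. All 9 genes passed the count minimum. The rule called 2 of the 9 lower (SUV39H1 and SETDB1), 0 higher and 7 neither, beside 23.6% called lower and 7.51% called higher among the 12457 tested genes. The share of the 9 called lower is near that background. Their median log2 ratio was −0.77, against −0.13 for all tested genes. All 9 are protein-coding, whereas the tested genes include noncoding ones. Of the 10881 tested protein-coding genes, 2654 were called lower and 599 higher, with a median of −0.17. Bulk RNA cannot tell fewer cells of a kind from less RNA per cell.

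The promoters of 6 of the 9 genes are shown because they carry the contrasts that follow: the SUV39 pair that parted most, the EHMT pair, the other gene called lower, and CBX5, which shares its promoter region with a neighbour. Each line is the longest stretch of the 250 bases before a RefSeq start (GRCh38.p14) that lies outside the exons of GENCODE 29. It is written 5′ to 3′ on the strand of the gene. The SETDB1 line belongs to the second of its 2 RefSeq starts, at 150926363, and ends at −101 from that start. The CBX5 line belongs to the start at 54280122, 1 of its 3. Capitals mark letters of the GC box (GGGCGG), the box read as CCAAT, the NRF1 site, the E-box (CACGTG) or the cyclic AMP response element (TGACGT), each searched on both strands. Adjacent or overlapping matches form 1 run.
SUV39H1, chrX:48696484-48696594, plus strand: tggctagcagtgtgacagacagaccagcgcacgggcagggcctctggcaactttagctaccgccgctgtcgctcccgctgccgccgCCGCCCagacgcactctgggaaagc
SUV39H2, chr10:14878687-14878819, plus strand: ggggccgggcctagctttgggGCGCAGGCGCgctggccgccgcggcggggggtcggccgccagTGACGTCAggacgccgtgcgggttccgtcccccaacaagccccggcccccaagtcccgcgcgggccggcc
EHMT1, chr9:137618907-137618962, plus strand: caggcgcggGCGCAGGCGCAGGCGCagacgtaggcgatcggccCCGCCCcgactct
EHMT2, chr6:31897699-31897784, minus strand: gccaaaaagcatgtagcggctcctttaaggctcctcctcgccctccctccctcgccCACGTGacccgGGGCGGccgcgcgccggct
SETDB1, chr1:150926113-150926262, plus strand: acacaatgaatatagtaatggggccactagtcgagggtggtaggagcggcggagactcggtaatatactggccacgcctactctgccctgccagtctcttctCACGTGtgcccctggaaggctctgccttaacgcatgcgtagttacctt
CBX5, chr12:54280134-54280192, minus strand: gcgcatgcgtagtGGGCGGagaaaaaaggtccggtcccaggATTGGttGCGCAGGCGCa

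The SUV39H1 line belongs to the second of its 2 RefSeq starts, at position 48696734 of chromosome X. The window of 300 bases around that start (250 before, 50 after) held 42 CpG dinucleotides and 72.0% G and C, whereas the window of the other start, at 48695554, held 7 CpG and 56.3%. The median over 35116 such windows was 14 CpG and 58.7%. The SUV39H2 window resembled the CpG-rich SUV39H1 window in base composition, with 44 CpG and 76.3% G and C. Both hold GC boxes, as do 7 of the 9 genes in at least 1 window and 48.3% of all 27305 genes in the table. In the letters searched, the pair differed: SUV39H1 had a CCAAT box, which lies in an annotated exon and is not printed, present in 3 of the 9 genes and 39.7% of all, while SUV39H2 had an NRF1 site (3 of 9, 6.98% of all) and a cyclic AMP response element (1 of 9, 9.64% of all).

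The EHMT1 window held 4 NRF1 matches, of which the overlapping pair printed above lies 89 and 83 bases before the start. An E-box was found in EHMT2, SETDB1 and CBX5 and in 8.78% of all genes. An E2F site, searched as the letters TTTGGCGC, the form TTTGGCGG, the form TTTCCCGC and the form TTTCGCGC, was found at the starts of CBX3 and CBX5, in 4.05% of all genes, but not in CBX1 or in the methyltransferase genes. A YY1 motif (ATGGCGG), whose letters can overlap an E2F match, was present in SUV39H2, EHMT2 and CBX5 and in 6.66% of all genes. No window of the 9 genes held TATAAA, which 14.0% of all genes have. The motifs were chosen after the windows had been read, and a match is only a run of letters.

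The DMSO library held 18445831 counts over 23986 detected genes and the THZ1 library 18313827 counts over 23528. CDK7, whose product THZ1 binds, had 676 and 180 counts. Of 6 epithelial markers, 2 (KRT8 and KRT18) reached 30 counts, EPCAM was at 0 in DMSO and 3 counts in THZ1, and CDH1 had 2 and 3 counts. Of 9 urothelial markers, UPK1B, UPK3A and KRT20 were at 0 in both libraries and UPK2 was at 0 in DMSO, while FOXA1 (129 and 21 counts) and TP63 (61 and 34) passed the minimum. Of 4 markers of other cell types, PTPRC and PECAM1 had at most 2 counts, DES had 0 and COL1A1 30 and 20. The summed level of the epithelial markers was 37.3 CPM (counts scaled for depth with the TMM factors) for DMSO and 38.9 for THZ1, and that of the urothelial markers 10.6 and 4.66. KRT18 alone supplied 32.7 and 31.1 CPM of the epithelial sum, and FOXA1 6.06 and 1.32 CPM of the urothelial sum. KRT7 (18 and 17 counts), KRT19 (1 and 1), GATA3 (25 and 12), UPK1A (10 and 5) and PPARG (1 and 0) did not reach the minimum.

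SUV39H1, the best studied H3K9 trimethylating enzyme, lies on the plus strand of chromosome X from 48695554 to 48709012 (GRCh38, ENSG00000101945). Its TMM-scaled level was 12.5 CPM (11.0 to 14.0, exact Poisson interval) in DMSO and 0.44 CPM (0.18 to 0.91) in THZ1. The THZ1 value is 7 reads, above the floor of 3 counts (0.19 CPM in that library), so the gene was detected but its level is known only within a wide range. The log2 ratio was −4.72 (−6.15 to −3.76), and 17 of the 12457 tested genes had a lower one. Among 8452 protein-coding genes with 200 or more counts in DMSO, 1 had a lower ratio than SUV39H1. Because the set was selected on the ratio of SUV39H1 above all, these ranks are a description only.

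The protein-coding genes whose ratios lay closest to that of SUV39H1 were CDC25A (−4.71; 1312 and 37 counts), a phosphatase that activates cyclin-dependent kinases, HMOX1 (−4.61; 6675 and 203 counts), which degrades haem, and TFAP2C (−4.58; 497 and 15 counts), a transcription factor. Likeness here is a single difference between 2 libraries, at most 0.14 on the log2 scale, and is well inside the counting interval of SUV39H1.

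SUV39H2 (ENSG00000152455, chromosome 10 from 14878820 to 14904315) encodes the second enzyme of the SUV39 pair. It had 79.1 CPM (75.4 to 83.0) in DMSO and 46.3 CPM (43.0 to 49.8) in THZ1, a log2 ratio of −0.77 (−0.90 to −0.65). The 2 intervals of its level do not overlap, yet the ratio is under 2-fold and 3608 of the 12457 tested genes had a lower one. Because both genes are read in the same libraries, their proportion does not depend on the scaling. SUV39H1 supplied 13.6% of the SUV39 counts in DMSO (12.1 to 15.2, exact Clopper-Pearson interval) and 0.943% in THZ1 (0.38 to 1.93). The SUV39H1 to SUV39H2 ratio of counts changed by −4.05 on the log2 scale (−5.38 to −2.97). The SUV39H2 gene overlaps DCLRE1C and the strand setting is not given, so shares and ratios that include SUV39H2 are uncertain.

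EHMT1 and EHMT2 showed a smaller parting of the same kind. EHMT1 (ENSG00000181090, chromosome 9 from 137618963 to 137870016) had 75.2 CPM (71.6 to 79.0) in DMSO and 38.2 CPM (35.3 to 41.4) in THZ1. Its log2 ratio of −0.98 (−1.11 to −0.84) lies just inside the 2-fold limit, so it was called neither. EHMT2 (ENSG00000204371, chromosome 6 from 31879759 to 31897687) had 21.8 CPM (19.9 to 23.9) in DMSO and 25 CPM (22.6 to 27.6) in THZ1. The EHMT2 intervals overlap, and its log2 ratio was 0.20 (0.00 to 0.39), which turns to −0.21 with total-count scaling. EHMT1 supplied 77.5% of the EHMT counts in DMSO (75.7 to 79.3) and 60.5% in THZ1 (57.4 to 63.5). The share of the EHMT1 reads was therefore lower in THZ1 by more than counting error, whatever the scaling.

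SETDB1 (ENSG00000143379, chromosome 1 from 150926263 to 150964744) was the second gene called lower. It had 534 counts in DMSO and 169 in THZ1, or 25.1 CPM (23.0 to 27.3) and 10.6 CPM (9.10 to 12.4), and a log2 ratio of −1.23 (−1.5 to −0.98). The upper bound of that interval lies inside 2-fold, and 19.0% of tested genes had a lower ratio. SETDB2 (ENSG00000136169, chromosome 13 from 49444374 to 49495003) had 391 and 170 counts, or 18.4 CPM (16.6 to 20.3) and 10.7 CPM (9.16 to 12.4). Its log2 ratio of −0.78 (−1.05 to −0.52) was called neither. SETDB1 supplied 57.7% of the counts of the pair in DMSO (54.5 to 60.9) and 49.9% in THZ1 (44.4 to 55.3). The ratio of SETDB1 to SETDB2 counts changed by −0.46 (−0.83 to −0.09), the smallest change among the 3 methyltransferase pairs.

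The HP1 genes yielded more counts than any of the methyltransferase genes, before transcript length is considered. CBX1 (ENSG00000108468, chromosome 17 from 48070052 to 48101521) had 6399 counts in DMSO and 7805 in THZ1, or 300.7 and 492 CPM, with a log2 ratio of 0.71 (0.66 to 0.76). CBX3 (ENSG00000122565, chromosome 7 from 26201162 to 26213356) had 4235 and 4656 counts, or 199 and 293 CPM, with a log2 ratio of 0.56 (0.50 to 0.62). Both lay above the bulk of the transcriptome, with 84.7% and 79.2% of tested genes at lower ratios, but neither reached 2-fold. CBX5 (ENSG00000094916, chromosome 12 from 54230940 to 54280133) had 5648 and 3078 counts, or 265 and 194 CPM, with a log2 ratio of −0.45 (−0.52 to −0.39). CBX5 alone of the HP1 genes had a negative ratio on this scaling.

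Within the HP1 family the division of reads changed without regard to scaling. CBX5 supplied 34.7% of HP1 counts in DMSO (34.0 to 35.4) and 19.8% in THZ1 (19.2 to 20.4), while CBX1 went from 39.3% (38.5 to 40.1) to 50.2% (49.4 to 51.0) and CBX3 from 26.0% (25.3 to 26.7) to 29.96% (29.2 to 30.7). The ratio of CBX5 to CBX1 counts changed by −1.16 on the log2 scale (−1.24 to −1.08) and that of CBX3 to CBX1 by −0.15 (−0.23 to −0.07). CBX1 and CBX3 thus stayed close to each other, and CBX5 moved away from both. The CBX3 gene overlaps HNRNPA2B1 and the strand setting is not given, so shares and ratios that include CBX3 are uncertain. The ratio of CBX5 to CBX1 counts does not involve CBX3.

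**Figure D1:**
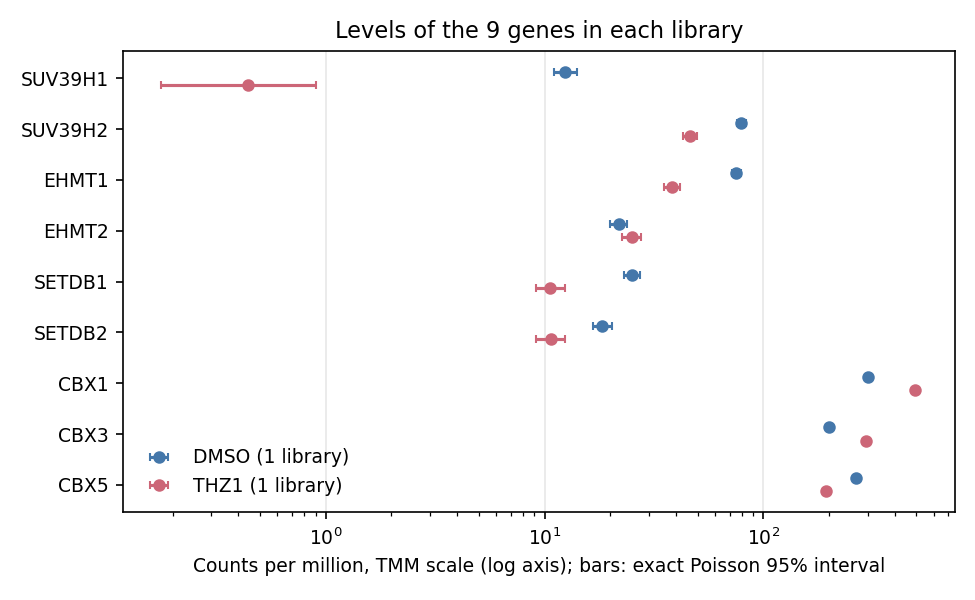
Level of each of the 9 genes in CPM on the TMM scale (horizontal log axis), in the DMSO library (blue) and the THZ1 library (red), 1 library each, with exact Poisson 95% intervals for counting error. SUV39H1 goes from 12.5 to 0.44 CPM, and CBX1 and CBX3 are the genes, besides EHMT2, with the higher point in THZ1.

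**Figure D2:**
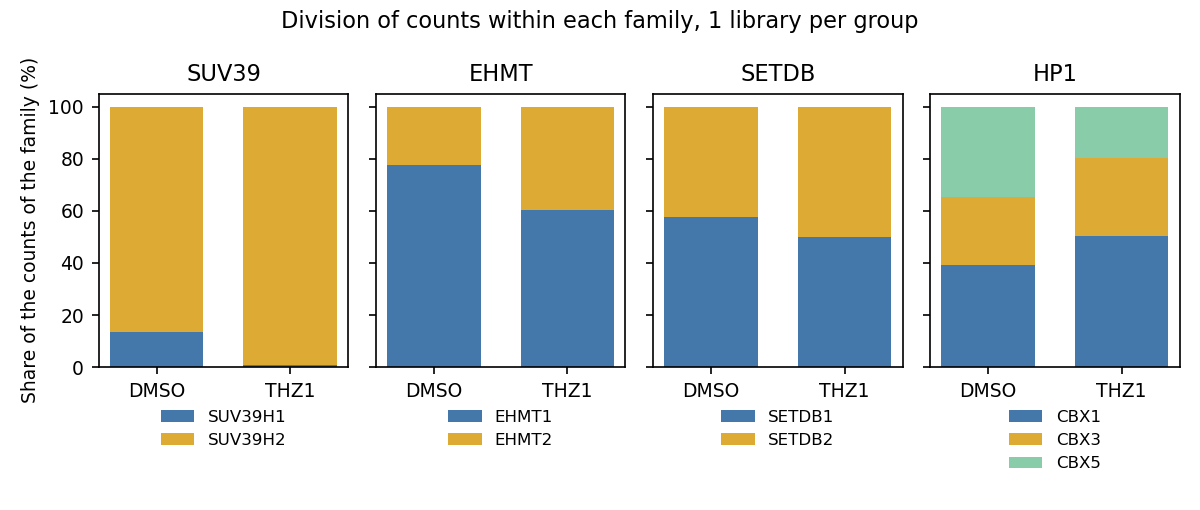
Share of the counts of each family, in percent, that each of its genes supplied in the DMSO and THZ1 libraries, which does not depend on the scaling. The SUV39H1 part shrinks from 13.6% to 0.943% and the CBX5 part from 34.7% to 19.8%.

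Summed over enzymes, the 6 methyltransferase genes had 4938 counts in DMSO and 2085 in THZ1, a log2 ratio of −0.82 (−0.90 to −0.75). The 3 HP1 genes had 16282 and 15539 counts, a log2 ratio of 0.36 (0.32 to 0.39). There were 0.303 methyltransferase counts per HP1 count in DMSO and 0.134 in THZ1, a change of −1.18 on the log2 scale (−1.26 to −1.10) that needs no scaling. Within the methyltransferases SUV39H2 was the largest source of counts in both libraries, with 34.1% in DMSO (32.8 to 35.4) and 35.3% in THZ1 (33.2 to 37.3). EHMT2 went from 9.40% (8.60 to 10.2) to 19.0% (17.4 to 20.8), and SUV39H1 from 5.37% (4.75 to 6.03) to 0.336% (0.135 to 0.691). Counts of different genes are not compared as levels here, since longer transcripts yield more reads.

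Per kilobase of merged exons, CBX1 stood first in both libraries, at 97.4 CPM per kb in DMSO and 159 in THZ1, and CBX3 second, at 42.9 and 63.2. SUV39H2 (22.2 and 12.99) and CBX5 (17.6 and 12.9) followed, and the 2 did not differ in THZ1 beyond the counting interval of SUV39H2. The other 5 genes lay between 2.75 (SETDB2) and 3.70 (SUV39H1) CPM per kb in DMSO. In THZ1 SUV39H1 dropped to the last place, at 0.13, below SETDB1 at 1.501. Merged exons overstate the length of a typical transcript where many isoforms are annotated, as for EHMT1 with 52 transcripts and 22217 bases. Per kilobase of 1 principal transcript, EHMT1 had 14.6 and 7.44 CPM per kb, and SUV39H1 moved from rank 5 to rank 8 of the 9 genes in DMSO, while CBX1 and CBX3 kept the first places.

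The ratios move with the reference used for scaling. Against TMM, all log2 ratios shift by −0.41 with total counts, by −1.59 with the mitochondrially encoded mRNAs and by 0.54 with the upper quartile. SUV39H1 was called lower under each of these, with log2 ratios from −6.31 to −4.19. The amount added to each count also bears on it, since with 5 counts added in place of 0.5 its ratio was −4.07. With total counts 5 of the 9 genes were called lower (SUV39H1, SUV39H2, EHMT1, SETDB1 and SETDB2), beside 34.2% of tested genes, and 0 higher, beside 2.95%. With the mitochondrial reference 8 were called lower, beside 80.3% of tested genes, and 0 higher, beside 0.706%, and CBX1, at −0.88, was the exception. On that reference CBX3 stood at −1.03 and EHMT2 at −1.39, so a higher value of CBX1, CBX3 or EHMT2 holds only relative to the bulk of the transcriptome. With the upper quartile SUV39H1 alone was called lower, beside 14.1% of tested genes, and CBX1 (1.25) and CBX3 (1.10) were called higher, beside 24.4%. On that scale CBX5 stood at 0.08, and SETDB1, at −0.70, was no longer called.

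**Figure D3:**
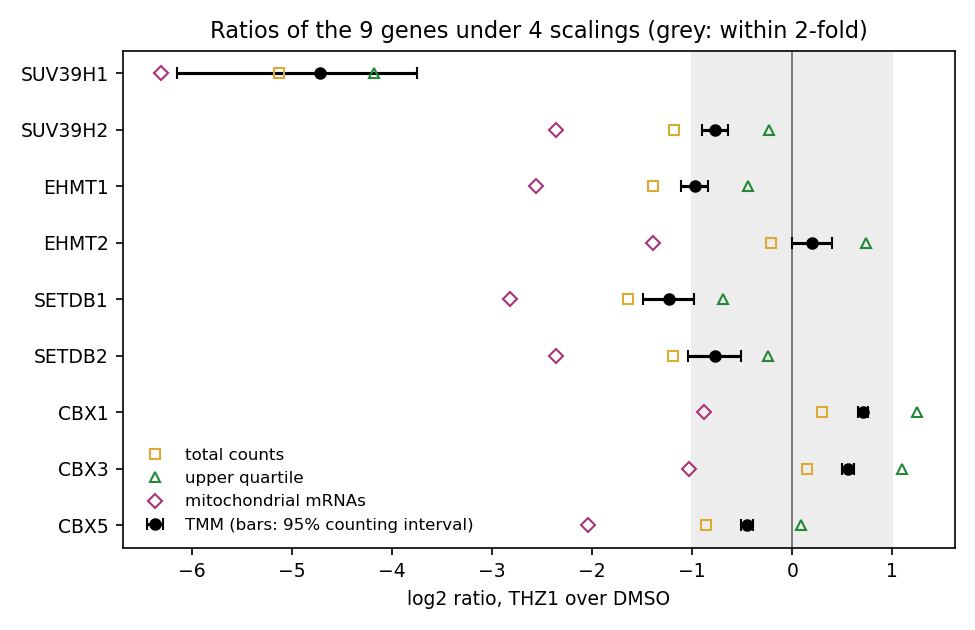
Log2 ratio of THZ1 over DMSO for each gene under TMM (black, with the 95% counting interval), total counts (squares), the upper quartile (triangles) and the mitochondrial mRNAs (diamonds), 1 library per group. SUV39H1 lies far left of the 2-fold band under all 4, and a change of scaling moves all genes by the same distance.

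Features of gene structure that played no part in the choice of the genes varied widely among them. SUV39H1 and CBX3 were the shortest genes, spanning 13459 and 12195 bases, and EHMT1 the longest, at 251054, beside a median of 34617 for 10881 tested coding genes. These short genes had log2 ratios of −4.72 and 0.56. Whether span goes with the ratio was not tested. The principal transcripts had from 5 exons (SUV39H2, CBX1 and CBX5) to 28 (EHMT2), beside a median of 9. The 3′ untranslated region ran from 325 bases in EHMT2 to 10815 in CBX5, beside a median of 1154. ATTTA, the core of AU-rich elements, occurred 21 times in that of CBX5, 10 times in SETDB2, 5 times in SUV39H2 and in CBX3, 1 time in EHMT1 and in CBX1, and not at all in SUV39H1, EHMT2 and SETDB1, beside a median of 2. The 3′ untranslated regions of both genes called lower held 0, as did that of EHMT2, which was called neither. The lower quartile of the tested coding genes was also 0. A relation of ATTTA number to the ratio was not tested.

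Of the 9 genes, 6 had another annotated gene starting within 1 kb on the opposite strand, and 5 of these neighbours had enough counts to test. CBX5 starts 60 bases from HNRNPA1, which encodes an abundant splicing regulator, and the printed CBX5 stretch is the whole gap between the 2 genes. HNRNPA1 had 19803 counts in DMSO and 24245 in THZ1, a log2 ratio of 0.71 (0.69 to 0.74), opposite in sign to the −0.45 of CBX5. The ratio of CBX5 to HNRNPA1 counts changed by −1.17 (−1.24 to −1.10) on the log2 scale. CBX3 starts 367 bases from HNRNPA2B1, a relative of HNRNPA1, and the annotated genes overlap. HNRNPA2B1 had 19701 and 33833 counts and was called higher at 1.20 (1.18 to 1.23), and CBX3, at 0.56, lay on the same side of 0. Without a stated strand setting, reads in the overlap cannot be assigned, so the CBX3 value is uncertain.

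SETDB2 starts 248 bases from CAB39L, a scaffold gene of the LKB1 kinase complex, which had 198 and 244 counts and a ratio of 0.72 (0.45 to 1.002) beside −0.78 for SETDB2. EHMT1 starts 57 bases from the antisense gene ARRDC1-AS1, at −0.51 (−0.88 to −0.16; 190 and 99 counts) beside −0.98 for EHMT1. SUV39H2 starts 134 bases from the divergent noncoding gene SUV39H2-DT, which had 13 and 34 counts and was called higher at 1.78 (0.85 to 2.86). SUV39H2-DT passed the count minimum only in THZ1, where it is higher, so its place among the tested pairs depends on that value. In 3 of the 5 tested pairs (CBX5, SETDB2 and SUV39H2) the 2 neighbours thus had ratios of opposite sign on the TMM scale. Of all 12457 tested genes, 6955 had a ratio below 0, so opposite signs are common between any 2 genes. The count of pairs is a description only. With the upper quartile, which shifts all ratios upward, CBX5 stood at 0.08, on the same side of 0 as HNRNPA1. With the mitochondrial shift of −1.59, HNRNPA1, CAB39L and HNRNPA2B1 fall below 0 and SUV39H2-DT does not, while the differences within pairs stay as they are. The complement gene C2, 98 bases from EHMT2, had 1 and 5 counts, too few for a ratio. SUV39H1, SETDB1 and CBX1 had no annotated start of another gene within 1 kb.

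Further genes overlap the set. DCLRE1C, a nuclease gene, overlaps SUV39H2 on the other strand and had 1931 and 1156 counts (−0.32, −0.42 to −0.21). Reads shared without regard to strand would move the SUV39H2 value. CERS2, a ceramide synthase gene, overlaps SETDB1 and had 1189 and 1069 counts (0.27, 0.15 to 0.39), so reads shared without regard to strand would move the SETDB1 value. SUV39H1 overlaps 1 antisense gene with 0 and 1 counts. A total of 15 pseudogenes carry the name of an HP1 gene, 5 of CBX1, 9 of CBX3 and 1 of CBX5, and held between 0 and 0.260% as many counts as their parent. Reads that map to several places could still have been lost before counting.

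**Figure D4:**
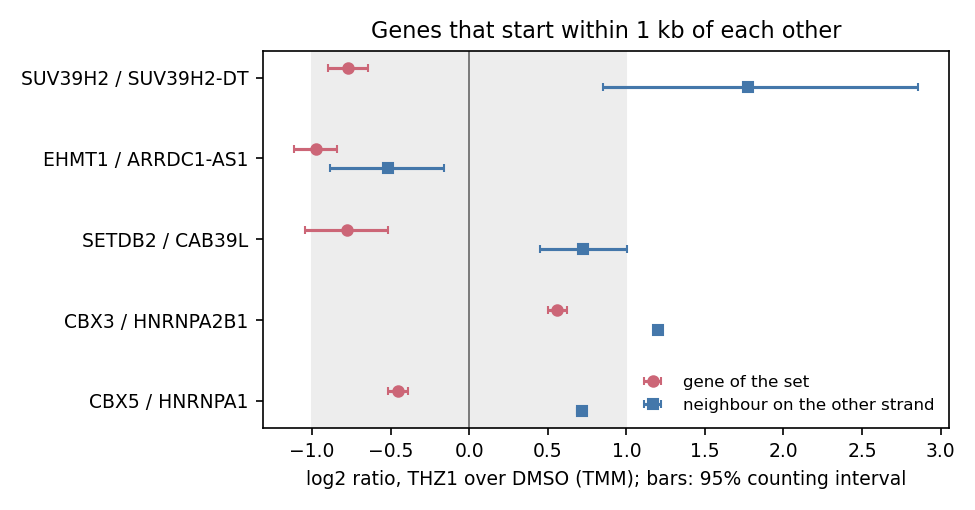
Log2 ratio of THZ1 over DMSO on the TMM scale, with 95% counting intervals, for 5 genes of the set (circles) and the tested gene that starts within 1 kb on the other strand (squares), 1 library per group. Circle and square stand on opposite sides of 0 for SUV39H2, SETDB2 and CBX5. The neighbour of SUV39H2 passed the count minimum only in THZ1, where it is higher.

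The partners of the methyltransferases were lower by the rule in 2 of 9 cases, higher in 0 and neither in 7, beside 23.6% lower and 7.51% higher among all tested genes, so their share called lower is near the background. Their median log2 ratio was −0.60 beside −0.13 for all tested genes. CDYL, a chromodomain corepressor that binds EHMT2, was lower at −1.59 (−1.79 to −1.39; 1060 and 263 counts). ZNF644, a zinc finger cofactor of the EHMT complex, was lower at −1.10 (−1.17 to −1.02; 5368 and 1874 counts), and its companion WIZ stood at −0.34. The SETDB1 partners ATF7IP (−0.71) and TRIM28 (−0.60) were called neither. So were the HUSH complex genes TASOR (−0.62), MPHOSPH8 (−0.23) and PPHLN1 (−0.21). SETDB1 had a lower ratio than each of these 5 partners.

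Genes for HP1-binding proteins had 5 of 14 called lower, beside 23.6% of all tested genes, 1 higher, beside 7.51%, and 8 in between. Their median was −0.55. ADNP, which forms a silencing complex with HP1 and the remodeller CHD4, was lower at −3.12 (−3.29 to −2.95; 3519 and 302 counts). CHAMP1 (−2.63, −2.95 to −2.33; 823 and 99 counts) and LRIF1 (−1.71, −1.88 to −1.55) were also lower. CHAF1A, the HP1-binding subunit of chromatin assembly factor CAF-1, was lower at −1.46 (−1.63 to −1.29), and the H4K20 methyltransferase gene KMT5C had 33 and 5 counts (−2.18, −4.01 to −0.93). With a minimum of 100 counts, which KMT5C does not reach, 4 HP1-binding genes were lower, beside 23.2% of tested genes. KMT5B, the paralogue of KMT5C, stood at −0.56 and LBR, which anchors HP1 at the nuclear envelope, at 0.09. ATRX, a remodeller of heterochromatin, was called higher at 1.01 (0.96 to 1.07), but its ratio is below 0 with the mitochondrial shift.

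The enzymes that remove H3K9 methylation had 4 of 11 lower, beside 23.6% of all tested genes, 0 higher, beside 7.51%, and 7 in between. Their median was −0.79, close to the −0.77 of the 9 genes. JMJD1C was lower at −1.87 (−2.01 to −1.73; 2424 and 494 counts), KDM4A at −1.09 (−1.39 to −0.81), PHF2 at −1.07 (−1.31 to −0.85), and KDM4D had 59 and 12 counts (−1.83, −2.91 to −0.96). With a minimum of 100 counts, which KDM4D does not reach, 3 demethylases were lower, beside 23.2% of tested genes. Of the 2 tested PRDM methyltransferase genes, 1 was lower, beside 23.6% of all tested genes, and 0 higher, beside 7.51%. MECOM was lower (−1.51, −1.73 to −1.29), PRDM2 was neither (−0.86), and PRDM16 had 0 counts in both libraries, under the floor of 3. Genes for DNA methylation in heterochromatin had 2 of 11 lower, beside 23.6% of all tested genes, 0 higher, beside 7.51%, and 9 in between. Their median was −0.67. ZBTB24, a transcription factor mutated in an immunodeficiency with centromere instability, was lower at −3.61 (−4.13 to −3.17; 664 and 40 counts), and the methyltransferase gene DNMT3B at −2.10 (−2.97 to −1.38; 100 and 17 counts). MBD1 (−0.95) was neither, nor was UHRF1 (−0.88), whose product reads methylated H3K9 and hemimethylated DNA, and DNMT1 stood at 0.36.

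The HP1 genes share the chromodomain with chromobox paralogues of Polycomb complexes. Of 4 of these in the list, CBX2 (−3.32, −4.19 to −2.63; 220 and 16 counts), CBX8 (−2.62; 78 and 9 counts) and CBX6 (−1.88, −2.07 to −1.69) were called lower and CBX7 (−0.12) was neither, beside 23.6% lower among all tested genes and 0 of 3 HP1 genes. The 3 called genes had lower ratios than CBX5, while CBX7 lay within the range of the HP1 genes. The difference between these small lists was not tested. With a minimum of 100 counts, which CBX7 and CBX8 do not reach, 2 Polycomb paralogues were lower, beside 23.2% of tested genes. Among 15 H3 methyltransferases of other lysines, 6 were lower, beside 23.6% of all tested genes, 0 higher, beside 7.51%, and 9 in between. Their median was −0.67, with SETD1A (−2.42, −2.79 to −2.09), SETD1B (−1.68) and NSD1 (−1.45) furthest from 0. SUV39H1 had a lower ratio than each tested gene of the 7 related lists, which hold 66 tested genes in all. The set was selected on that ratio and the lists were chosen with earlier results known, so this place is a description only.

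**Figure D5:**
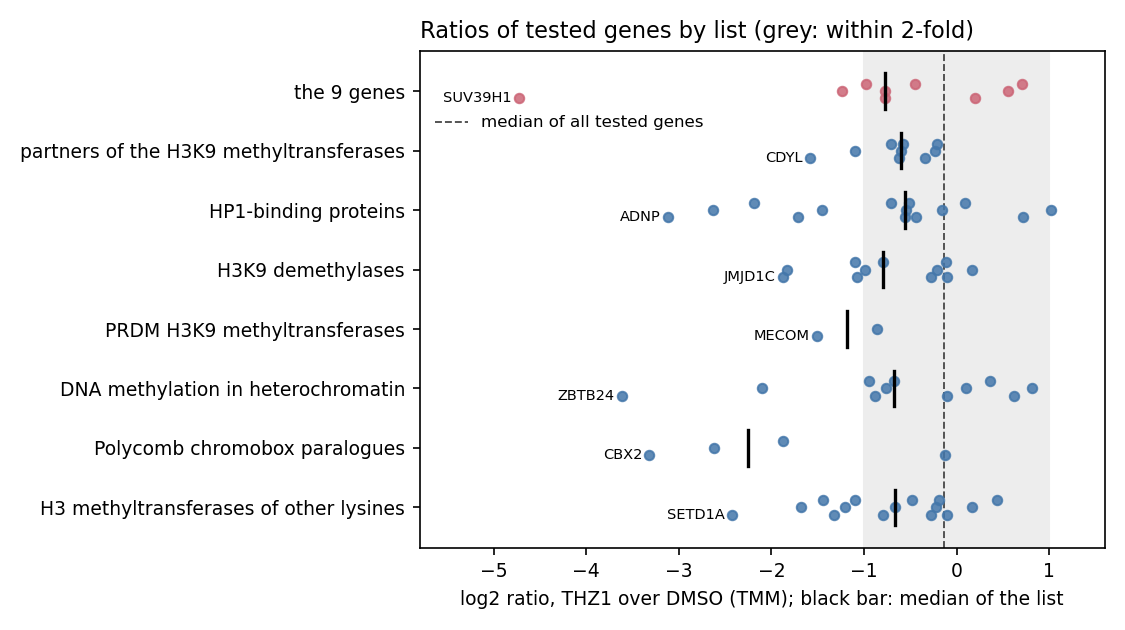
Log2 ratio of THZ1 over DMSO on the TMM scale for the tested genes of each list, 1 point per gene and 1 library per group, with the list median (black bar), the median of all tested genes (dashed line, −0.13) and the lowest gene named. SUV39H1, on whose ratio the set was selected, is the lowest point of all. The other 8 genes of the set lie between −1.23 (SETDB1) and 0.71 (CBX1).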

How the data were processed

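RNA from T24/R cells was sequenced as 1 DMSO and 1 THZ1 library. The authors deposited raw counts of reads per gene, in whole numbers and without normalization. Per the submitters' processing notes, the tools were featureCounts 1.6.0, HISAT2 2.1.0 and Trimmomatic 0.38 and the build GRCh38; the annotation, the strand setting and the treatment of multi-mapping reads were not given in the sources used here. Of 58884 gene IDs, 58472 had a symbol and 58611 were found in GENCODE 29, the source of coordinates and gene structure.

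TMM factors over all genes (edgeR 4.0.16, R 4.3.3) gave effective sizes of 21281300 (DMSO) and 15873737 (THZ1). Ratios used 0.5 added counts. Intervals are exact 95% intervals (Clopper-Pearson, Poisson, or conditional for ratios of 2 genes). Like the floor of 3 counts they cover counting error only, since reads that carry no molecular identifier can be copies. The calling rule was tested on simulated data. The members and lists were chosen with earlier results of these data known. Named besides the 9 genes are up to 3 genes per list with 100 or more counts and the ratios furthest from 0, known partners, neighbours within 1 kb and the 3 coding genes nearest to SUV39H1 in ratio. ATRX, CBX7, CBX8, DCLRE1C, CERS2, DNMT1, KDM4D and PRDM16 were named after their values were seen. One gene that a list would hold is not reported here. Alternatives were 6 other scalings (with DESeq2 1.42.0 for one), count minimums of 1 and 100, 5 added counts, a stricter interval rule, thinning and added pseudogene counts. Tables were made in Python 3.11.15 with scipy 1.17.1.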

Additional observations from a re-analysis of the deposited data

How the results depend on the processing

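SUV39H1 was called lower under every alternative run for it, with a log2 ratio of −4.07 when 5 counts were added in place of 0.5 (−4.72), and the other calls moved mainly with the scaling. The number of the 9 genes called lower, 2 with TMM, was 5 with total counts, 8 with the mitochondrial reference, 1 with the upper quartile and 1 where the interval bound itself had to reach 2-fold; 2 were higher with the upper quartile. With total counts (34.2% of all tested genes lower, 2.95% higher) 0 HP1-binding genes were higher. The numbers lower were 5 methyltransferase partners, 2 PRDM genes and 6 DNA methylation genes. With the mitochondrial reference 80.3% of all tested genes were called lower and 0.706% higher, and 0 HP1-binding genes were higher. The numbers lower there were 9 partners, 12 HP1-binding genes, 11 demethylases, 2 PRDM genes, 9 DNA methylation genes and 15 methyltransferases of other lysines. With the upper quartile (14.1% lower, 24.4% higher) they were 1 partner, 2 demethylases, 0 PRDM genes and 2 methyltransferases of other lysines, and 2 HP1-binding genes and 2 DNA methylation genes were higher. With TMM over the 12457 tested genes (21.3% lower), chosen after seeing the data, 1 partner and 2 demethylases were lower. With the interval bound (17.0% of all tested genes lower, 4.0% higher), 1 demethylase was lower and 0 HP1-binding genes were higher. On the mitochondrial reference EHMT2 (−1.39), CBX3 (−1.03) and CBX1 (−0.88) turned to the other side of 0, as did EHMT2 (−0.21) with total counts and CBX5 (0.08) with the upper quartile. All these scalings shift every gene by the same amount, so the proportions within families do not change. No paired analysis was possible because each group has 1 library and the labels carry no replicate numbers, and leaving out a library was not possible for the same reason. Among the 9 genes depth limits SUV39H1 most, since its THZ1 value rests on 7 counts. KMT5C, with 33 and 5 counts, has a wider interval still.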
